A study of Gossypium hirsutum with 24 samples.

Results

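Transcripts of trehalose 6-phosphate synthases (TPS) and trehalose 6-phosphate phosphatases (TPP) were followed through bolls of cotton (Gossypium hirsutum cv. Bikaneri narma) with and without bollworm. They were read from 8 of the 23977 cotton probe sets of an Affymetrix Cotton GeneChip, 6 for TPS and 2 for TPP. The probe sets were chosen by their descriptions, which name these enzymes and which the study gave mostly to transcripts selected on their differences between infested and noninfested bolls on these arrays. Those differences are therefore given as a description, without a test. Infested bolls (BS) carried Helicoverpa armigera larvae, in their second instar by the labels, for 8 h at the stage called 0 days post-anthesis (dpa), for 2 days at 2 dpa and for 5 days at 5 dpa. In the 10 dpa bolls feeding ended with removal of the larva after 5 days, and the boll grew on, until 10 days by the labels but for 10 further days by the study's methods. Noninfested control bolls (CN) of the same stages came from a separate plot and were bagged like the infested bolls, so plot and infestation cannot be told apart. Each of the 8 groups had 3 arrays, each from a pool of bolls of 5 plants, so p-values measure the spread between pools. They are given for steps between stages within BS or within CN. The arrays of these steps also enter the contrasts that chose the probe sets, which the p-values do not take into account. RNA of BS came from whole bolls at the first 2 stages, and at the last 2 from the infested portion only. Which part of the CN bolls was used at the last 2 stages was not stated. The BS step from 2 to 5 dpa thus also sets whole bolls against boll portions. The age of the CN bolls of the 10 dpa stage was not stated, so BS and CN may not be matched in age there.

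TPS joins UDP-glucose and glucose 6-phosphate into trehalose 6-phosphate, TPP removes the phosphate to give trehalose, and trehalase splits trehalose into glucose. In plants trehalose 6-phosphate is known mainly as a signal of sucrose supply, and in growing tissue of Arabidopsis it inhibits SnRK1, the kinase that adjusts metabolism to low energy. In Arabidopsis, TPS5 to TPS11 form a class whose proteins hold a synthase-like and a phosphatase-like domain and for which little synthase activity is known. TPS1, which belongs to another class, makes most of the trehalose 6-phosphate there.

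By their descriptions, 2 of the 6 TPS probe sets match Arabidopsis TPS11 (Ghi.3451.2.A1_at and Ghi.3451.2.S1_at, called TPS11 A1 and TPS11 S1 here) and 2 match TPS7 (Ghi.6320.2.A1_at and Ghi.6320.2.S1_at, called TPS7 A1 and TPS7 S1). One probe set was built on a cotton trehalose 6-phosphate synthase cloned from cultivar Siokra L23 (Ghi.8034.1.S1_s_at, called GhTPS), and one matches TPS5 (Gra.697.1.S1_s_at). The phosphatases are a match to Arabidopsis TPPA (Ghi.3389.2.A1_s_at) and a putative TPP (Ghi.912.3.A1_at, called the Ghi.912 TPP). The A1 and S1 probe sets of TPS11 carry the same cluster number, as do those of TPS7, and each pair may measure 1 gene. The GhTPS, TPS5 and TPPA probe sets are of the type that can detect several similar transcripts, and cotton carries near-identical copies of many genes, so the gene copy behind a value is uncertain. In the probe annotation used here GhTPS alone was listed, as LOC107886610, and no genome position is given because the array names no build.

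The values are log2 expression values in which each probe set was set to a median of 0 over the 24 arrays, so a value shows a change between groups and not how abundant a transcript is, and levels of different probe sets are not compared. All 8 probe sets were kept, since no filter on dim signals was possible. Replicates of a group lay close together, with a median SD over probe sets between 0.074 and 0.111 log2 units in the 8 groups. The SD of values over probe sets was largest on the BS arrays of 10 dpa (1.05 to 1.07) and smallest on the CN arrays of 2 dpa (0.35 to 0.36). The 27 hybridization controls, transcripts spiked into each hybridization, were at 0, 2, 5 and 10 dpa 0.66, 1.01, 0.81 and 0.80 log2 units higher in BS than in CN. Marker lists also differed. They were drawn by words from descriptions, mostly of transcripts that the study called, and many fibre markers are expansins or fasciclin-like proteins. Fibre markers had array medians of −2.35 to −2.16 in BS and 1.32 to 1.39 in CN at 10 dpa over 42 probe sets. Those of green tissue were −1.74 to −1.71 in BS and 0.46 to 0.50 in CN at 2 dpa over 13. Median BS minus CN at 0, 2, 5 and 10 dpa was −0.69, −1.17, −1.22 and −3.79 for fibre and −0.52, −2.14, −0.75 and −2.06 for green tissue. Some markers went the other way, such as a CAB1 probe set (3.35, 0.1, 3.58 and 3.01) and an expansin A8 match (2.89, 2.93, 2.75 and −0.93). The part of the controls and markers in the results was not tested. In whole bolls or boll pieces a change in the share of a tissue and a change within its cells cannot be told apart.

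At all 4 stages TPS11 transcripts stood higher in BS than in CN, and within CN they were high at 2 dpa only. TPS11 A1 read 0.30, 0.29 and 0.31 in BS at 0 dpa, against −3.76, −3.85 and −4.06 in CN. At 2 dpa its values were 0.89, 0.90 and 0.86 in BS and −0.35, −0.30 and −0.29 in CN. No BS array overlapped a CN array of the same stage, and the gap at 2 dpa was the narrowest of the 4 stages. At 5 dpa the values were 1.17, 1.12 and 1.09 in BS and −4.78, −4.91 and −4.86 in CN, and at 10 dpa 1.51, 1.72 and 1.65 in BS and −4.59, −4.86 and −4.51 in CN. BS minus CN was thus 4.19 ± 0.08, 1.20 ± 0.08, 5.98 ± 0.08 and 6.27 ± 0.08 log2 units (± SE, n = 3 arrays per group) at 0, 2, 5 and 10 dpa, or 18.2-, 2.29-, 63.0- and 77.4-fold.

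The narrow gap of TPS11 at 2 dpa came with a change in control bolls. Here and below, the choice of probe sets can favour low CN values at 0 and 5 dpa. The CN steps and their p-values are therefore a description. In CN, TPS11 A1 rose 11.9-fold between 0 and 2 dpa (3.58 ± 0.08, limma adjusted p = 1.3e-18) and fell 23.2-fold between 2 and 5 dpa (−4.54 ± 0.08, adjusted p = 2.4e-20). Between 5 and 10 dpa the CN arrays overlapped, with a difference of 0.20 (95% interval 0.03 to 0.37, adjusted p = 0.051). TPS11 S1 had the same course in CN, with −2.64, −2.97 and −2.81 at 0 dpa, −0.20, −0.26 and −0.17 at 2 dpa, −3.13, −2.74 and −2.67 at 5 dpa and −2.75, −2.88 and −2.90 at 10 dpa. Its 2 dpa arrays stood apart from the other 9 CN arrays, which overlapped from stage to stage. It rose by 2.60 ± 0.12 between 0 and 2 dpa (adjusted p = 3.9e-13) and fell by 2.64 ± 0.12 between 2 and 5 dpa (adjusted p = 2.5e-13, limma).

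In infested bolls TPS11 S1 rose between 0 and 2 dpa, and every other step of the TPS11 probe sets stayed under 3-fold. TPS11 S1 read 0.29, 0.17 and 0.64 at 0 dpa, 1.95, 1.91 and 2.08 at 2 dpa, 1.80, 1.62 and 1.51 at 5 dpa and 2.55, 2.76 and 2.46 at 10 dpa in BS. The rise between 0 and 2 dpa was 3.07-fold (1.62 ± 0.12, adjusted p = 8.8e-10 in limma), which is near the 3-fold threshold and was lost in turn without BS replicate 1 or 2 of 0 dpa or replicate 3 of 2 dpa (1.58, 1.52 and 1.57). TPS11 A1 differed by 0.58 ± 0.08 over the same step and stayed under 3-fold. Between 5 and 10 dpa BS values were 0.50 ± 0.08 (A1) and 0.94 ± 0.12 (S1) higher at 10 dpa, under the fold threshold, and after quantile normalization between arrays these differences were −0.18 and −0.01. Here and below, quantile normalization was run on the centred values and shrinks the wide BS arrays of 10 dpa by construction.

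**Figure D1:**
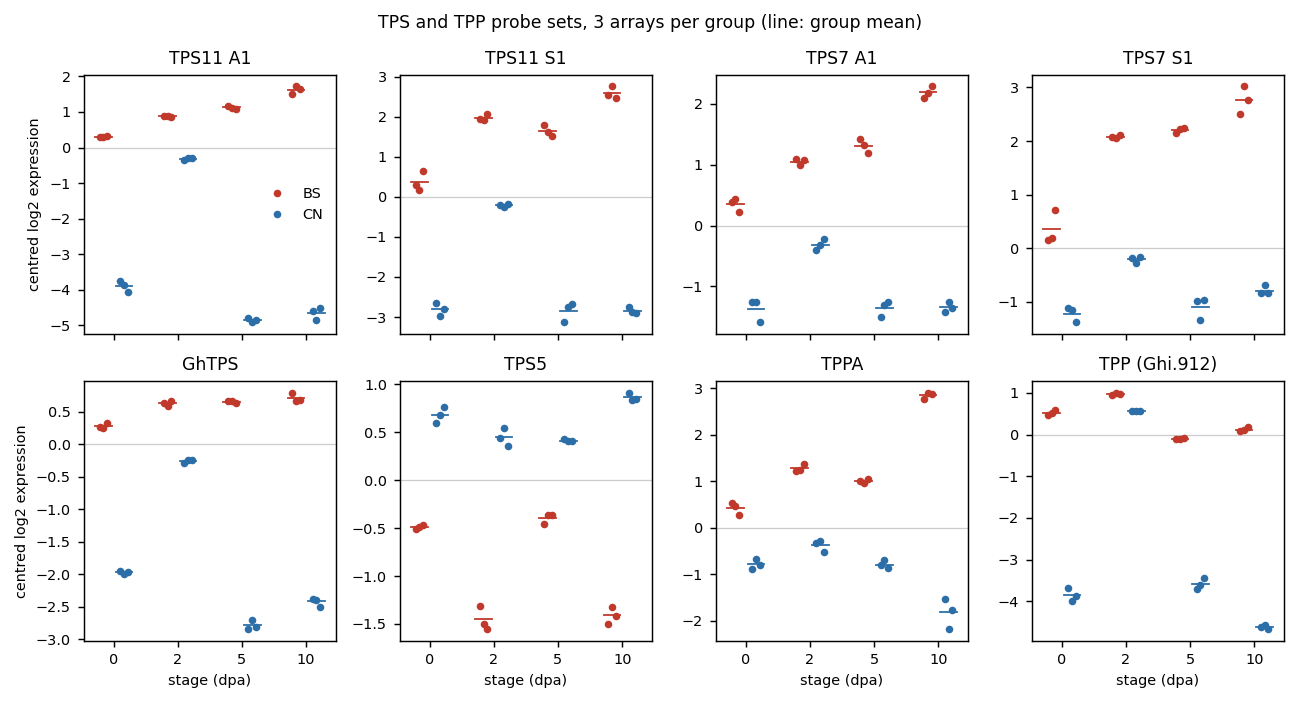
Centred log2 expression of the 8 TPS and TPP probe sets in BS (red) and CN (blue) at 0, 2, 5 and 10 dpa; points are single arrays and lines are means of 3 arrays. In TPS11 A1 the CN mean lies at −0.31 at 2 dpa and between −4.85 and −3.89 at the other stages, and in TPS5 every BS array lies below every CN array.

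TPS7 transcripts were also higher in infested than in control bolls at all 4 stages, and no step between stages in CN reached 3-fold. TPS7 A1 read 0.39, 0.43 and 0.22 in BS and −1.25, −1.26 and −1.59 in CN at 0 dpa, and 1.09, 0.99 and 1.07 in BS and −0.41, −0.32 and −0.22 in CN at 2 dpa. At 5 dpa it read 1.43, 1.33 and 1.19 in BS and −1.50, −1.30 and −1.26 in CN, and at 10 dpa 2.10, 2.18 and 2.29 in BS and −1.42, −1.26 and −1.35 in CN. The BS groups were ordered by stage without overlap, whereas the CN arrays of 0, 5 and 10 dpa overlapped one another and lay below those of 2 dpa. The last BS step, 0.88 between 5 and 10 dpa, was 0.01 after quantile normalization. BS minus CN was 1.71, 1.37, 2.67 and 3.53 (± 0.09 each, n = 3 per group) at 0, 2, 5 and 10 dpa. In CN the 2 dpa arrays were 1.05 ± 0.09 above those of 0 dpa (adjusted p = 9.2e-09) and the 5 dpa arrays 1.04 ± 0.09 below those of 2 dpa (adjusted p = 1.0e-08, limma), both near 2-fold and under the 3-fold threshold.

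TPS7 S1 separated from TPS7 A1 at 2 dpa in infested bolls. It read 0.16, 0.20 and 0.72 in BS and −1.12, −1.15 and −1.38 in CN at 0 dpa, and 2.07, 2.05 and 2.12 in BS and −0.19, −0.27 and −0.16 in CN at 2 dpa. At 5 dpa it read 2.15, 2.23 and 2.24 in BS and −0.98, −1.34 and −0.97 in CN, and at 10 dpa 2.51, 3.02 and 2.77 in BS and −0.83, −0.69 and −0.84 in CN. BS and CN did not overlap at any stage, with differences of 1.58, 2.29, 3.31 and 3.56 (± 0.13 each, n = 3 per group). In BS it rose 3.30-fold between 0 and 2 dpa (1.72 ± 0.13, 95% interval 1.44 to 2.00, adjusted p = 9.4e-10 in limma), where TPS7 A1 differed by 0.70 (0.51 to 0.90). After quantile normalization the TPS7 S1 step was 1.55, just under 3-fold, and its step between 5 and 10 dpa in BS, 0.56 ± 0.13, turned to −0.49.

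GhTPS, the synthase cloned from cotton, had a nearly level course in infested bolls once past 0 dpa and a pulse at 2 dpa in controls. At 0, 2, 5 and 10 dpa its BS means were 0.28 ± 0.05, 0.64 ± 0.04, 0.65 ± 0.02 and 0.71 ± 0.07 (SD, n = 3), against CN means of −1.97 ± 0.03, −0.26 ± 0.02, −2.79 ± 0.08 and −2.42 ± 0.06. The BS arrays of 2, 5 and 10 dpa overlapped, while the 4 CN groups were all separate. In CN it rose 3.26-fold between 0 and 2 dpa (1.70 ± 0.05, adjusted p = 2.3e-16) and fell 5.74-fold between 2 and 5 dpa (−2.52 ± 0.05, adjusted p = 3.3e-19, limma). After quantile normalization the first of these was 1.29 and under 3-fold. BS minus CN was 2.25, 0.90, 3.44 and 3.13 (± 0.05 each), and at 2 dpa it was −0.06 when arrays were centred on the hybridization controls.

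TPS5 ran against the other 7 probe sets. It read −0.51, −0.49 and −0.47 in BS and 0.60, 0.68 and 0.76 in CN at 0 dpa, and −1.31, −1.50 and −1.55 in BS and 0.44, 0.54 and 0.36 in CN at 2 dpa. At 5 dpa it read −0.46, −0.36 and −0.36 in BS and 0.43, 0.41 and 0.41 in CN, and at 10 dpa −1.50, −1.32 and −1.42 in BS and 0.91, 0.84 and 0.85 in CN. All 12 BS arrays were below all 12 CN arrays, and the BS arrays of 2 and 10 dpa were about 1 log2 unit below those of 0 and 5 dpa. BS minus CN was −1.17, −1.90, −0.80 and −2.28 (± 0.07 each, n = 3 per group), or 2.26-, 3.73-, 1.74- and 4.86-fold lower in BS. In BS the successive steps were −0.96, 1.06 and −1.02 (± 0.07 each, adjusted p = 1.6e-10, 2.8e-11 and 2.6e-11 in limma), each near 2-fold and under the fold threshold. The quantile-normalized step between 5 and 10 dpa was −0.26. The marker lists had the same signs over these BS steps. Their medians were −0.95, 2.03 and −1.39 for green tissue (13 probe sets) and −0.75, 0.46 and −1.87 for fibre (42 probe sets). All probe sets had medians of 0.05, −0.06 and 0.1, and the part of the markers in the course of TPS5 was not tested. In CN its group means spanned 0.45 log2 units, the smallest span of the 8 probe sets, and the 2 dpa group showed no pulse (2 minus 0 dpa, −0.23 ± 0.07).

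The phosphatases had different courses (r = 0.74 over the 24 arrays, as a description). The Ghi.912 TPP had the widest course of all 8 in control bolls, with −3.68, −4.00 and −3.88 at 0 dpa, 0.57, 0.57 and 0.56 at 2 dpa, −3.70, −3.60 and −3.45 at 5 dpa and −4.62, −4.56 and −4.66 at 10 dpa. It rose 21.5-fold between 0 and 2 dpa in CN (4.42 ± 0.07, adjusted p = 4.9e-21) and fell 17.7-fold between 2 and 5 dpa (−4.15 ± 0.07, adjusted p = 9.6e-21, limma). Its BS values stayed within a span of 1.08, with 0.48, 0.51 and 0.58 at 0 dpa, 0.95, 1.00 and 0.97 at 2 dpa, −0.11, −0.11 and −0.08 at 5 dpa and 0.08, 0.11 and 0.18 at 10 dpa. The CN arrays of 2 dpa lay within the range of the BS arrays of 0 dpa and above those of 5 and 10 dpa. BS minus CN was 4.38, 0.41, 3.48 and 4.74 (± 0.07 each, n = 3 per group), or 20.8-, 1.33-, 11.2- and 26.7-fold. The small difference at 2 dpa was −0.10 after quantile normalization and −0.55 after centring on the hybridization controls.

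TPPA, in contrast, stayed under 3-fold at each step in CN and rose in BS between 5 and 10 dpa, after the larva was removed. It read 0.53, 0.46 and 0.28 in BS and −0.88, −0.68 and −0.79 in CN at 0 dpa, and 1.22, 1.25 and 1.37 in BS and −0.33, −0.28 and −0.51 in CN at 2 dpa. At 5 dpa it read 1.01, 0.96 and 1.04 in BS and −0.81, −0.70 and −0.86 in CN, and at 10 dpa 2.77, 2.90 and 2.87 in BS and −1.52, −2.17 and −1.76 in CN. BS and CN lay farther apart at 10 than at 5 dpa, with higher BS and lower CN values, and no arrays of one stage overlapped. The rise in BS was 3.58-fold (1.84 ± 0.11, 95% interval 1.60 to 2.08, adjusted p = 1.2e-11 in limma), where the Ghi.912 TPP differed by 0.23 (0.08 to 0.37). After quantile normalization this step of TPPA was 0.82 and under 3-fold. In CN the step from 0 to 2 dpa was 0.41 (0.17 to 0.65), against 4.42 (4.28 to 4.57) for the Ghi.912 TPP. BS minus CN was 1.21, 1.65, 1.80 and 4.66 (± 0.11 each), or 2.31-, 3.14-, 3.47- and 25.3-fold. The call at 2 dpa was lost without CN replicate 3 of that stage (1.58).

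Of the steps between stages within CN and within BS, those into and out of CN at 2 dpa held the most calls among the 8 probe sets. These steps did not choose the probe sets, but their arrays also enter the contrasts that did. A choice for high BS minus CN at 0 or 5 dpa can favour low CN values there. It can thus favour a rise into 2 dpa and a fall after it in CN. The calls are therefore a description, and the shares of all probe sets are no matched yardstick for them. TPS11 A1 and S1 may measure the same gene and are counted as 2. A probe set was called when its adjusted p was at most 0.01 and its fold change at least 3. Between 0 and 2 dpa in CN, 4 of the 8 were called higher (TPS11 A1, TPS11 S1, GhTPS and the Ghi.912 TPP) and 0 lower, where 2.08% of all probe sets were called higher and 0.73% lower, and the median difference was 1.38 over the 8 and −0.07 over all probe sets. By limma's adjusted p alone, 7 were higher and 1, TPS5, lower. Between 2 and 5 dpa in CN, the same 4 were called lower, where 2.13% of all were, with medians of −1.78 and 0.05. Between 5 and 10 dpa none of the 8 was called in CN, where 1.95% of all were, and 4 passed limma's adjusted p alone. A call upward and then downward was made for 308 probe sets in all, 1.28%. The 4 TPS and TPP probe sets named above are among them.

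**Figure D2:**
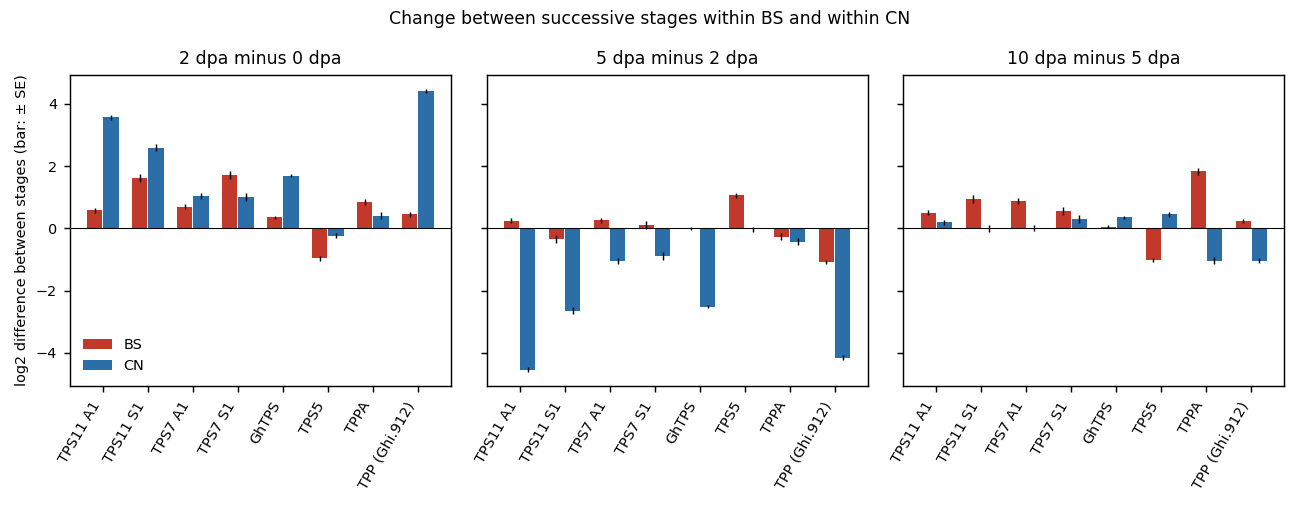
Log2 difference between successive stages within BS (red) and within CN (blue) for each TPS and TPP probe set, with bars for ± SE of the limma fit. In CN the Ghi.912 TPP changed by 4.42 and then −4.15, while in BS its largest step was −1.08; the step of TPPA between 5 and 10 dpa was 1.84 in BS and −1.03 in CN.

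In infested bolls fewer steps were called. Between 0 and 2 dpa, TPS11 S1 and TPS7 S1 were called higher, 2 of 8 where 0.463% of all probe sets were, and the median difference was 0.64 against 0.05 over all. Between 2 and 5 dpa none of the 8 was called (3.16% of all were), and 2 passed limma's adjusted p alone, TPS5 higher and the Ghi.912 TPP lower at 5 dpa. Between 5 and 10 dpa TPPA alone was called higher, 1 of 8 where 1.18% of all were. The 2 calls of the first step were both lost after quantile normalization and after centring on the hybridization controls, and the call of TPPA was lost after quantile normalization.

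Between infested and control bolls, 5, 3, 7 and 7 of the 8 probe sets were at least 3-fold higher in BS at 0, 2, 5 and 10 dpa, and TPS5 was at least 3-fold lower at 2 and 10 dpa. Of all probe sets 4.19%, 3.34%, 6.39% and 8.97% were called higher in BS at these stages, and 1.28%, 4.46%, 2.46% and 11.5% lower. At each stage the BS and CN arrays did not overlap for 8 of the 8, as for 59.4%, 68.6%, 67.3% and 75.6% of all. These contrasts chose the probe sets, so nothing is read from the counts. Several counts changed with the scaling. Quantile normalization took TPS5 under 3-fold at 10 dpa (−1.46) and past it at 0 dpa (−1.60). Centring on the hybridization controls took TPS5 past it at 0 dpa (−1.81) and TPS7 A1 at 0 dpa (1.08) and TPPA at 5 dpa (1.03) under it. The values nearest the threshold were 3.14-fold for TPPA at 2 dpa, just inside, and 2.99-fold for TPS7 S1 at 0 dpa, just outside. The comparator changed the values at 2 dpa. Against the mean of CN at 0 and 5 dpa, BS at 2 dpa was higher by 5.25 for TPS11 A1 and 2.41 for TPS7 A1. For GhTPS and the Ghi.912 TPP it was higher by 3.01 and 4.70, and TPS5 stayed lower (−2). A choice for high BS minus CN at 0 and 5 dpa can favour low CN values there, so nothing is read from these larger differences. With centring on the hybridization controls TPS5 alone passed 3-fold at 2 dpa.

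**Figure D3:**
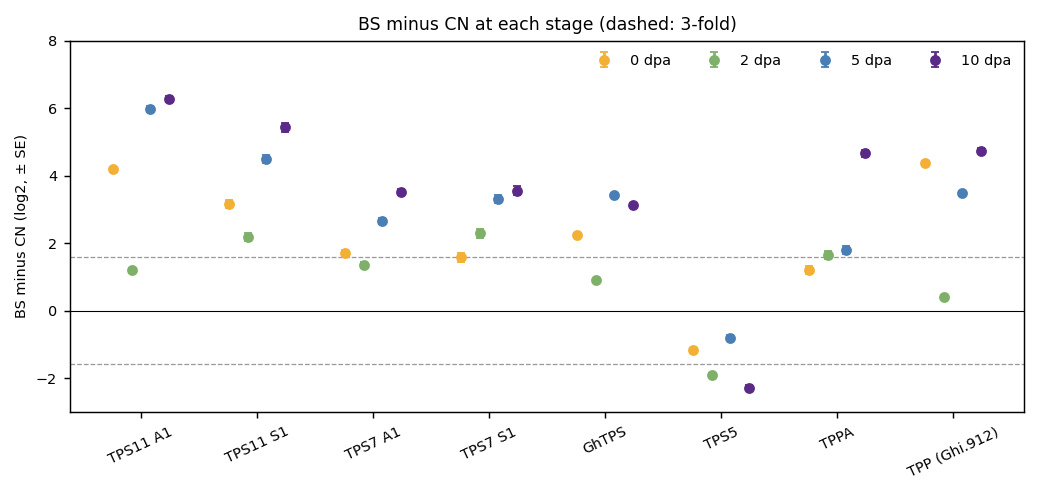
BS minus CN in log2 units at 0, 2, 5 and 10 dpa for each TPS and TPP probe set, with ± SE (many bars are smaller than the points) and dashed lines at 3-fold. TPS11 A1 reaches 6.27 at 10 dpa and 1.20 at 2 dpa, TPS5 lies below 0 at each stage, and the 2 dpa values of GhTPS (0.90) and the Ghi.912 TPP (0.41) turn to −0.06 and −0.55 with centring on the hybridization controls.

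Ordered by level, the groups fell into a common pattern for TPS11 A1, TPS11 S1, TPS7 A1, TPS7 S1, GhTPS and TPPA. In each of these 6 the 4 BS groups were highest, CN at 2 dpa came next and the other CN groups were lowest, and no BS array overlapped the CN arrays of 2 dpa. The probe sets were mostly chosen on BS against CN, so the place of BS above CN is a description only. The A1 and S1 probe sets of TPS11, and those of TPS7, may measure the same gene. In the values as deposited the BS arrays of 10 dpa were the highest group in all 6, overlapping the next group only in GhTPS. Quantile normalization shrinks the wide BS arrays of 10 dpa by construction, so it cannot decide whether this rank depends on the scaling. After it BS at 10 dpa stood below BS at 5 dpa in TPS11 A1 (−0.18), TPS11 S1 (−0.01), TPS7 S1 (−0.49) and GhTPS (−0.28). It stood level with BS at 5 dpa in TPS7 A1 (0.01) and stayed above it in TPPA (0.82). With centring on the hybridization controls, BS at 2 dpa was no longer above CN at 2 dpa in GhTPS (−0.06). In the Ghi.912 TPP the order was BS 2 dpa, CN 2 dpa, BS 0 dpa, BS 10 dpa, BS 5 dpa, CN 5 dpa, CN 0 dpa and CN 10 dpa, and CN 2 dpa overlapped BS 0 dpa and CN 5 dpa overlapped CN 0 dpa. In TPS5 the order started with CN 10 dpa and CN 0 dpa, and ended with BS 10 dpa and BS 2 dpa, which overlapped.

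The paired probe sets ran alike and had different spans. Over the 24 arrays TPS11 A1 and S1 had r = 0.97 and TPS7 A1 and S1 had r = 0.97, where the arrays share their 8 groups and the values are a description only. In CN the means of TPS11 A1 spanned 4.54 log2 units and those of S1 2.64, whereas in BS the A1 means spanned 1.33 and the S1 means 2.22. TPS7 A1 and S1 spanned 1.84 and 2.41 in BS and 1.05 and 1.01 in CN. Whether the probe sets of a pair measure 1 gene was not tested. Within BS the phosphatases parted: the Ghi.912 TPP had r of −0.50 to −0.16 with the 5 synthase probe sets other than TPS5 over 12 arrays, against 0.80 to 0.98 within CN, while TPPA had 0.71 to 0.94 with them within BS and 0.20 to 0.63 within CN.

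**Figure D4:**
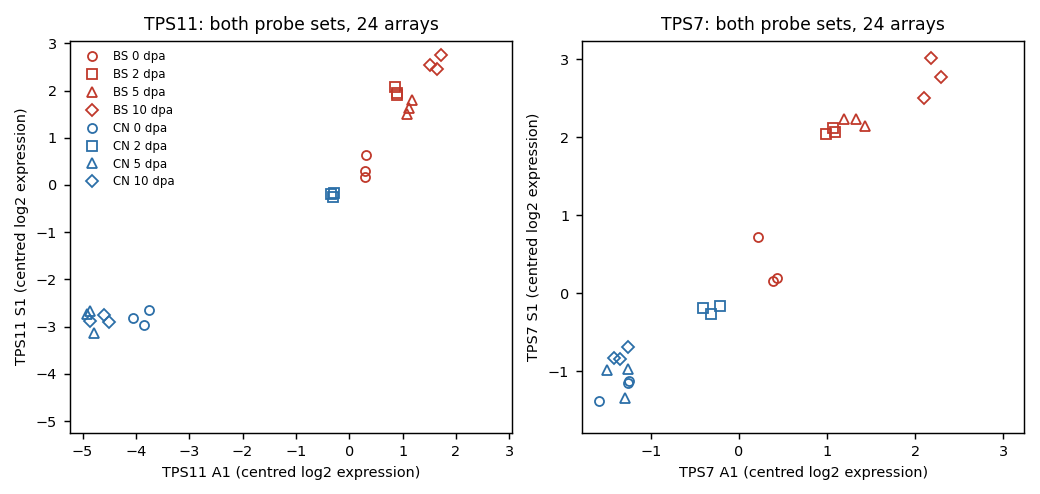
TPS11 S1 against TPS11 A1 (left) and TPS7 S1 against TPS7 A1 (right) on the 24 arrays, in centred log2 expression, with BS in red, CN in blue and a symbol per stage. The CN arrays of TPS11 at 0, 5 and 10 dpa reach −4.91 in A1 and −3.13 in S1, and r is 0.97 in both panels.

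Further probe sets carry the cluster numbers of the phosphatases without a description of their own. Ghi.3389.1.A1_s_at, which shares its number with TPPA, was 2.85, 2.65, 3.49 and 3.33 log2 units higher in BS than in CN (± 0.07 each, n = 3) at 0, 2, 5 and 10 dpa and fell by 1.85 between 2 and 5 dpa in CN (adjusted p = 2.3e-15, limma). Between 5 and 10 dpa in BS it was 0.70 ± 0.07 higher (adjusted p = 9.7e-09, limma), under 3-fold, where TPPA was 1.84 higher. Ghi.912.1.A1_at and Ghi.912.2.A1_at differed between BS and CN by −0.21 to 0.39 and −0.17 to 0.11 and were not called in any comparison. The course of the Ghi.912 TPP thus was not seen in the other probe sets of that number. They differ from it in the digit that follows (912.1 and 912.2 against 912.3) and may measure other transcripts. Whether they detected a transcript at all cannot be told from centred values.

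Among 3278 other probe sets with a description, those most like each TPS or TPP over the 24 arrays were a mixed group, and r is a description only. TPS11 A1 was closest to AAE7/ACN1, an acetate-CoA ligase (r = 0.995), a predicted protein (0.995) and a putative PP2C protein phosphatase (0.994). TPS11 S1 was closest to MPK3, a MAP kinase of defence signalling in Arabidopsis (0.995), a sulfotransferase family protein (0.994) and the peptide transporter PTR3 (0.992). TPS7 A1 was closest to ATB2 (0.995), MPK17 (0.995) and an unknown protein (0.994), and TPS7 S1 to MYB6 (0.989), the ubiquitin ligase RMA1 (0.987) and a heavy-metal-associated domain protein (0.986). GhTPS was closest to another heavy-metal-associated domain probe set (0.994), AAE7/ACN1 (0.992) and the NAC factor ANAC083 (0.992). TPS5 was closest to a pair of probe sets for 1 unknown protein (0.983 and 0.982) and a lipid transfer family protein (0.980). TPPA was closest to an unknown protein, a match to WRKY19 of the moss Physcomitrella patens and the amino acid transporter AAT1 (0.977 each). The Ghi.912 TPP was closest to a putative protein kinase (0.994), the F-box protein EBF2 of ethylene signalling (0.986) and the expansin-like EXLB1 (0.984).

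The rest of the trehalose pathway and its neighbours moved in different directions. The lists below were drawn by words from the same kind of tables, so they hold mostly transcripts that the study called, and their BS minus CN is a description as well. At 0, 2, 5 and 10 dpa, 4.19%, 3.34%, 6.39% and 8.97% of all probe sets were called higher in BS. The shares called lower were 1.28%, 4.46%, 2.46% and 11.5%. The 1 trehalase probe set, TRE1, was 1.50, 1.39, 1.26 and 1.49 log2 units higher in BS (± 0.07 each, n = 3) at 0, 2, 5 and 10 dpa, under 3-fold at each stage. Of 5 transcripts that supply UDP-glucose and hexose phosphates, 4 were called lower in BS at 10 dpa (median −2.01) but 1 each at 0, 2 and 5 dpa, and 0 were called higher. UDP-glucose pyrophosphorylase, which makes the UDP-glucose that TPS uses, was −1.57, −2.05, −3.21 and −5.06 (± 0.11), and a phosphoglucomutase, which interconverts glucose phosphates, was −3.06 ± 0.18 at 10 dpa. The 4 sucrose-cleaving transcripts were all called lower at 10 dpa, with a sucrose synthase SUS1 at −5.40 ± 0.14 and vacuolar invertase BFRUCT3 at −3.99 ± 0.09. Fibre markers moved with them, 35 of 42 being called lower and 0 higher in BS at 10 dpa, and their part in these differences was not tested.

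**Figure D5:**
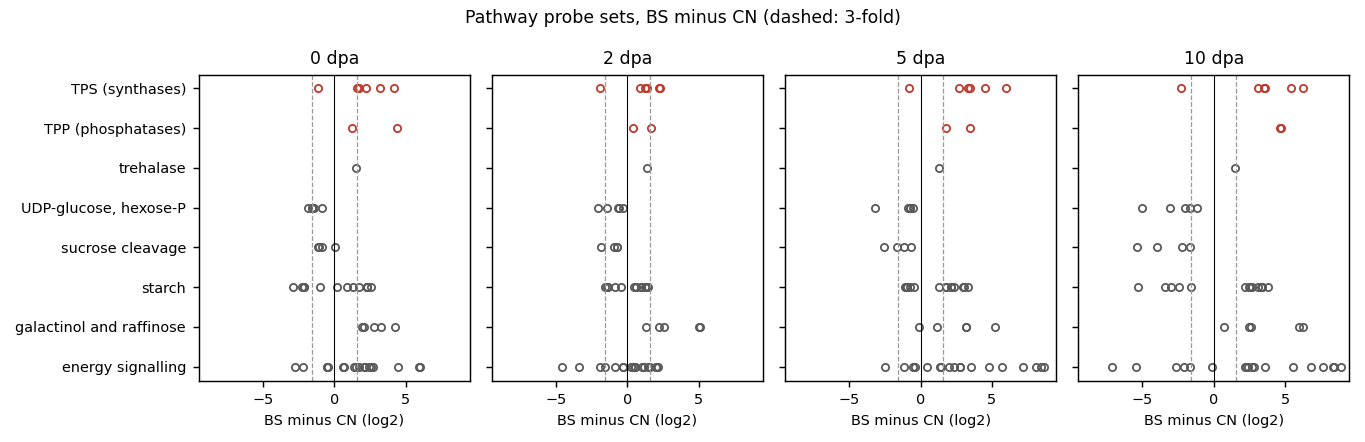
BS minus CN in log2 units at 0, 2, 5 and 10 dpa for single probe sets (circles) of TPS and TPP (red) and of 6 neighbouring lists (grey), with dashed lines at 3-fold. At 10 dpa the UDP-glucose and hexose phosphate list has a median of −2.01 and the galactinol and raffinose list one of 2.63, and the list of energy signalling runs from −7.15 to 8.89.

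Starch transcripts were split, with 9 of 14 called higher and 5 lower in BS at 10 dpa, where 8.97% and 11.5% of all were. The large ADP-glucose pyrophosphorylase subunit APL4, which acts in starch synthesis, was −5.32 ± 0.07, and the beta-amylase BMY7 was 3.83 ± 0.11. That BMY7 probe set also had the pulse in CN, rising by 1.79 between 0 and 2 dpa and falling by 1.70 between 2 and 5 dpa. Another BMY7 probe set changed by 1.4 and −1.35 in these steps and was called in neither. Of the 14 starch probe sets, 5 were called higher and 2 lower in the first step, where 2.08% and 0.73% of all were. In the second, 4 were called lower, where 2.13% of all were, and 0 higher. Probe sets of the beta-amylase BMY3 were called in both (2.12 and −1.77, 2.02 and −2.05, 1.8 and −1.69). APL4 (−1.82) and a starch branching enzyme SBE2.2 (−1.59) were called lower in the first. Of the 5 probe sets of the raffinose list, 4 for galactinol synthases, which start the making of raffinose sugars, and 1 for SIP1, 5, 4, 3 and 4 were called higher in BS at 0, 2, 5 and 10 dpa. Of all probe sets 4.19%, 3.34%, 6.39% and 8.97% were called higher. A GOLS1 probe set was called at 0 dpa only (2.79, 1.33, −0.09 and 0.74). GOLS2 reached 6.28 ± 0.10 and another GOLS1 probe set 5.95 ± 0.13 at 10 dpa, and neither was called in CN between 0 and 2 dpa (−0.02 and 0.55). The remaining GOLS1 probe set was called in each CN step, with 1.99 between 0 and 2, −2.13 between 2 and 5 and 2.04 between 5 and 10 dpa.

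Of 18 probe sets of energy signalling, 8 were called higher in CN between 0 and 2 dpa and 0 lower, where 2.08% and 0.73% of all were. Between 2 and 5 dpa 7 were called lower, where 2.13% of all were, and 0 higher. The 7 probe sets of ASN1 (also DIN6), an asparagine synthetase that SnRK1 activates in Arabidopsis, made up 6 of these calls in each step, with differences of up to 7.54 and down to −8.75. The ASN1 probe sets with the largest BS minus CN stood at 8.89 ± 0.13 at 10 dpa and 8.64 ± 0.16 at 5 dpa, and at 0.55 and −0.33 at 2 dpa. At 0 dpa 6 of the 7 ASN1 probe sets were called higher in BS and 1 lower, where 4.19% and 1.28% of all were. The lower one stood at −2.22, −1.91, 0.48 and −0.14 at 0, 2, 5 and 10 dpa. DIN3, of branched-chain amino acid breakdown, had the pulse as well (1.70 and −2.13). The bZIP factors diverged. Of 4 GBF6 probe sets, which match Arabidopsis bZIP11, 4 were called lower in BS at 10 dpa, where 11.5% of all were. Of 4 bZIP53 probe sets 4 were called higher at 5 and at 10 dpa, where 6.39% and 8.97% of all were. The kinase of the list was an SnRK2 of abscisic acid signalling, and no probe set of SnRK1 was found by the words used. Nor was one for a sucrose phosphate enzyme.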

How the data were processed

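The samples were 24 Affymetrix Cotton GeneChip arrays, grouped by the labels into BS and CN at 0, 2, 5 and 10 dpa with 3 arrays each. The authors deposited log2 expression values, made by RMA (background correction, quantile normalization, median polish) in GeneSpring GX. Each of the 24132 rows has a median within 0.0001 of 0, so a centring of each probe set was inferred. It removes the level of a transcript, so signal over background and a filter on dim probe sets could not be had. Precision rests on 3 arrays per group. No sequence was used here.

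Probe sets were named from the descriptions in the tables of the paper, whose fold changes were not used. Without 103 control (AFFX) and 52 reporter (RPTR) probe sets, 23977 remained and were fitted with limma 3.58.1 in R 4.3.3 as 8 group means over 24 arrays (16 residual and 3.53 prior degrees of freedom), with Benjamini-Hochberg adjustment over all of them. The thresholds, adjusted p of at most 0.01 and 3-fold, are those of the methods, which used an unpaired t-test. SEs and intervals are from limma. The fit was tested on simulated data with independent noise and planted differences. These had no shifts between arrays, no unequal array spread and no choice of probe sets, so the simulation cannot speak to those limits.

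The 8 probe sets and the lists were chosen with earlier results of these data known. All 8 are named throughout, with the 3 described probe sets of highest Pearson r for each and, from each pathway list, the 2 with the largest absolute BS minus CN. Further genes of the energy list (DIN3, GBF6, bZIP53 and SnRK2) and of the starch list (BMY3 and SBE2.2) were named after their values were seen. So were further probe sets of ASN1, GOLS1 and BMY7 and the markers CAB1 and expansin A8. Alternatives were other normalizations and centrings, the t-test, robust estimation, a replicate block, other thresholds, a variance filter, another comparator at 2 dpa and leaving out each array. Quantile normalization was here applied again, to the centred values, and forces arrays of unlike spread to the same distribution.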

Additional observations from a re-analysis of the deposited data

Results flagged for a closer look

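The BS step between stages minus the CN step is built from the contrasts that chose the probe sets, so the cases past 3-fold are given as a description, and no difference is claimed from a test. Between 0 and 2 dpa, TPS11 A1 and the Ghi.912 TPP changed less in BS than in CN, with differences of −2.99 ± 0.11 and −3.97 ± 0.10 log2 units (SE, n = 3 arrays per group). Between 2 and 5 dpa the BS step lay above the CN step by 4.78 ± 0.11 for TPS11 A1, 2.30 ± 0.18 for TPS11 S1, 2.54 ± 0.07 for GhTPS and 3.07 ± 0.10 for the Ghi.912 TPP. Between 5 and 10 dpa it did so by 2.87 ± 0.16 for TPPA.

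Control probe sets, which no comparison of TPS or TPP used as a measurement, were higher in BS than in CN at every stage. The median BS minus CN of 27 hybridization controls was 0.66, 1.01, 0.81 and 0.80 log2 units at 0, 2, 5 and 10 dpa, and that of 42 poly-A controls was 1.28, 2.04, 1.89 and 0.99, where all cotton probe sets had −0.08, 0.07, −0.11 and 0.08. Groups of 3 arrays were too small for a search for single deviating arrays.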

How the results depend on the processing

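The counts of the 8 probe sets called in CN between 0 and 2 dpa (4) and between 2 and 5 dpa (4) stayed within 1.5 times under all normalizations, tests, filters and left-out arrays, and went past that only without a fold threshold, to 8 and 7. Without it the counts were 4 for CN and 7 for BS between 5 and 10 dpa, 8 and 2 for BS between 0 and 2 and between 2 and 5 dpa, and 8 each for BS minus CN at 0 and 2 dpa. A 2-fold threshold gave 2 each for CN between 5 and 10 dpa, BS between 2 and 5 dpa and BS between 5 and 10 dpa, and 8 for BS minus CN at 0 dpa. For BS between 0 and 2 dpa (2), quantile normalization and hybridization-control centring gave 0 and array medians 1, and for BS between 5 and 10 dpa (1) quantile normalization gave 0. For BS minus CN at 2 dpa (4), hybridization-control centring gave 1. The CN mean of 0 and 5 dpa gave 8, from CN values that the choice of probe sets can favour as low. Leaving out single arrays gave ranges of 1 to 2 for BS between 0 and 2 dpa, 5 to 6 for BS minus CN at 0 dpa and 3 to 4 at 2 dpa, and no change elsewhere.

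Centring on the hybridization controls moved the median BS minus CN of all probe sets to −0.72, −0.89, −0.87 and −0.69 at 0, 2, 5 and 10 dpa. The sign turned for small differences. Quantile normalization gave −0.04 for TPS7 A1 in CN and −0.18, −0.01, −0.49 and −0.28 for TPS11 A1, TPS11 S1, TPS7 S1 and GhTPS in BS between 5 and 10 dpa, and −0.10 for TPP912 (the Ghi.912 TPP) in BS minus CN at 2 dpa; array medians gave −0.01 for GhTPS in BS between 5 and 10 dpa. Hybridization-control centring gave 0.19 for TPS5 in CN between 2 and 5 dpa, −0.03 and −0.22 for TPS11 A1 and TPS7 A1 in CN between 5 and 10 dpa, 0.08 and 0.15 for TPS11 S1 and TPPA in BS between 2 and 5 dpa, −0.17 and −0.01 for GhTPS and TPP912 in BS between 5 and 10 dpa, and −0.06 and −0.55 for GhTPS and TPP912 in BS minus CN at 2 dpa. Leaving out single arrays gave −0.01 to 0.03 for GhTPS in BS and −0.08 to 0.01 for TPS5 in CN between 2 and 5 dpa, and −0.06 to 0.06 for TPS7 A1 in CN between 5 and 10 dpa. The cause was not tested, beyond that quantile normalization shrinks the wide BS arrays of 10 dpa by construction.

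Replicate numbers did not pair BS with CN arrays (correlations of deviations from the group means −0.24 to 0.11), and the replicate block gave the same counts as the fit without it in all 10 comparisons (for example 4 and 4 for the first 2 CN steps). The methods' t-test with Benjamini-Hochberg adjustment gave the same 10 counts as limma.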
